A study of Mus musculus with 6 samples.

Results

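The genes described here encode the TGF-beta, BMP and activin signalling system, and were measured in whole mouse uteri at gestation day (GD) 3.5 with and without Sox17 in the uterine epithelium. They were chosen by gene symbol. A gene was a member if its symbol began with Bmp, Gdf, Smad or Tgfb followed by a digit, or if it was among 23 listed receptors, activin and inhibin subunits, antagonists and Id genes. This gave 58 genes, of which 56 had a probe that could be named and 50 passed the filter on low signal, out of 14847 genes tested in all. The unnamed members were Tgfb1i1 and the pseudogene Bmp4-ps. Bmp5, Bmp8b, Bmp10, Bmp15, Gdf2 and Gdf6 were too dim to be tested, with a signal well above background on at most 2 of the 6 arrays.

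The study used RNA from the uteri of 3 Sox17f/f mice and 3 Sox17ed/ed mice, mated at 8 to 10 weeks of age to males of proven fertility and killed at GD 3.5 of a natural pregnancy, after which the embryos were flushed from the horns. All 6 carried floxed Sox17 alleles. Sox17ed/ed mice (LtfiCre/+ Sox17 f/f in the labels) also carried an iCre recombinase driven by the Ltf gene, which is active in the uterine epithelium from puberty, whereas the Sox17f/f controls carried no recombinase and appear as WT in part of the labels. Since the Cre acts in the epithelium and the RNA came from the whole organ, fewer cells of a type and less RNA per cell cannot be told apart in any value below. The question was which genes of the receptive uterus depend on epithelial SOX17, a transcription factor of the SRY-box family.

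Most ligands of this system bind a pair of type 1 and type 2 receptor kinases on the cell surface, and the type 1 receptor then phosphorylates receptor Smads. BMP ligands act mainly through Smad1, Smad5 and Smad9, and TGF-beta and activin mainly through Smad2 and Smad3, each joined by Smad4 in the nucleus, while Smad6 and Smad7 inhibit the pathway. Secreted antagonists such as noggin, gremlin and follistatin bind the ligands before they reach a receptor. In the pregnant mouse uterus BMP2 is known for its part in decidualization of the stroma, and BMP receptors are needed for a fertile uterus.

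Each array was read in 1 colour with 1 sample on it, and values below are log2 signals after quantile normalization between the arrays. A gene is represented by its probe of highest mean signal, and since probes differ in how brightly they hybridize, levels were compared between mice and never between genes. Between 56.8% and 65.7% of the 59305 non-control spots of an array had a signal well above background, 0 were saturated, and the arrays correlated at 0.9903 or more within a genotype and at 0.9625 to 0.9651 between genotypes. The 6 arrays shared 1 slide and 1 scan, but the genotypes occupied different lines of that slide, so position and genotype cannot be told apart. Sox17 itself fell from 12.17 ± 0.09 (SD, n = 3) to 9.72 ± 0.11 (SD, n = 3), a log2 fold change of -2.45 (standard error, SE, 0.09, limma adjusted p = 2.66e-05). With 3 arrays against 3 the smallest p of an exact permutation test (two-sided) is 0.1. It is reached whenever the arrays of the genotypes do not overlap, as for 40.6% of all genes tested. Every member called below reached it, which adds no support to a call.

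Marker genes of the tissue moved as well. The 7 tested gland epithelium markers, among them Foxa2, Lif and Prss29, were all lower in Sox17ed/ed uteri, and their mean log2 level ran from 9.48 to 10.07 on the Sox17f/f arrays and from 3.93 to 4.38 on the Sox17ed/ed arrays. Of 12 general uterine epithelium markers 5 were higher and 1 lower (10.1 to 10.3 against 10.6 to 10.9), and of 6 tested stratified squamous markers 2 were higher (5.34 to 5.38 against 6.76 to 7.71), Krt15 and Krt5. Both were well above background on 0 Sox17f/f arrays, and Krt5 was uneven in Sox17ed/ed uteri (7.80, 4.94 and 5.33). The 4 other squamous markers did not pass, with log2 fold changes of -0.12 (Trp63), 0.06 (Krt13), 0.30 (Krt14) and 0.85 (Sprr1a). Of 12 endothelium markers 1 was higher and 1 lower (10.914 to 11.004 against 10.679 to 10.757). However, 11 of these 12 had a negative log2 fold change (median -0.34). At a limma adjusted p under 0.05 with no fold threshold 7 were lower and 1 higher, where 10.1% of all genes tested were lower and 8.84% higher. Of 12 endometrial stroma markers 0 passed (13.7 to 13.8 in both genotypes), as did 0 of 9 leukocyte and 0 of 9 cell cycle markers, although the cell cycle level ran from 10.0 to 10.4 and from 10.5 to 10.7. Of 10 smooth muscle markers 1 was lower (13.4 against 13.0 to 13.4). The log2 fold change was negative for 8 of them, and 2 were lower at a limma adjusted p under 0.05. Of 5 mesothelium markers 2 were higher and 1 lower (7.13 to 7.25 against 7.40 to 8.07). Krt5 is on both the squamous and the mesothelium list, and its log2 fold change of 2.78 was the largest of the latter. The other mesothelium markers went both ways (Upk3b 1.56, Wt1 0.26, Msln -0.44 and Lrrn4 -1.24). Of 10 ovary markers 7 and of 7 adipocyte markers 4 were too dim to be tested, and 0 of the 3 others of each list passed. The part of these markers in the changes of the pathway genes was not tested.

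A gene was called when its unadjusted limma p was under 0.01 and its fold change at least 1.4, the thresholds that the study's methods state, and the limma p adjusted over all genes tested is printed beside it. Of the 50 tested members 10 were called, 8 higher and 2 lower in Sox17ed/ed uteri. That is 20% of them, against 12.5% of all genes tested. The members were chosen with earlier results of these data known, and the difference in share was not tested. The higher members made up 16%, against 6.04% of all genes, and the lower members 4%, against 6.47%. The higher members were the ligands Gdf15, Bmp3, Gdf10 and Gdf7, the receptor Bmpr1b, and Id1, Id2 and Id3, while the lower members were the antagonists Grem1 and Fst. At a limma adjusted p under 0.05 with no fold threshold, 15 members passed, 11 higher and 4 lower, where 18.9% of all genes passed, 8.84% higher and 10.1% lower. The median log2 fold change was 0.04 over the members and -0.0016 over all genes, and the median size of the change was 0.25 and 0.17. The arrays of the genotypes did not overlap for 24 members (48%, against 40.6% of all genes), 16 of them higher and 8 lower in Sox17ed/ed uteri, where 19.6% of all genes were higher in this way and 21% lower.

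**Figure D1:**
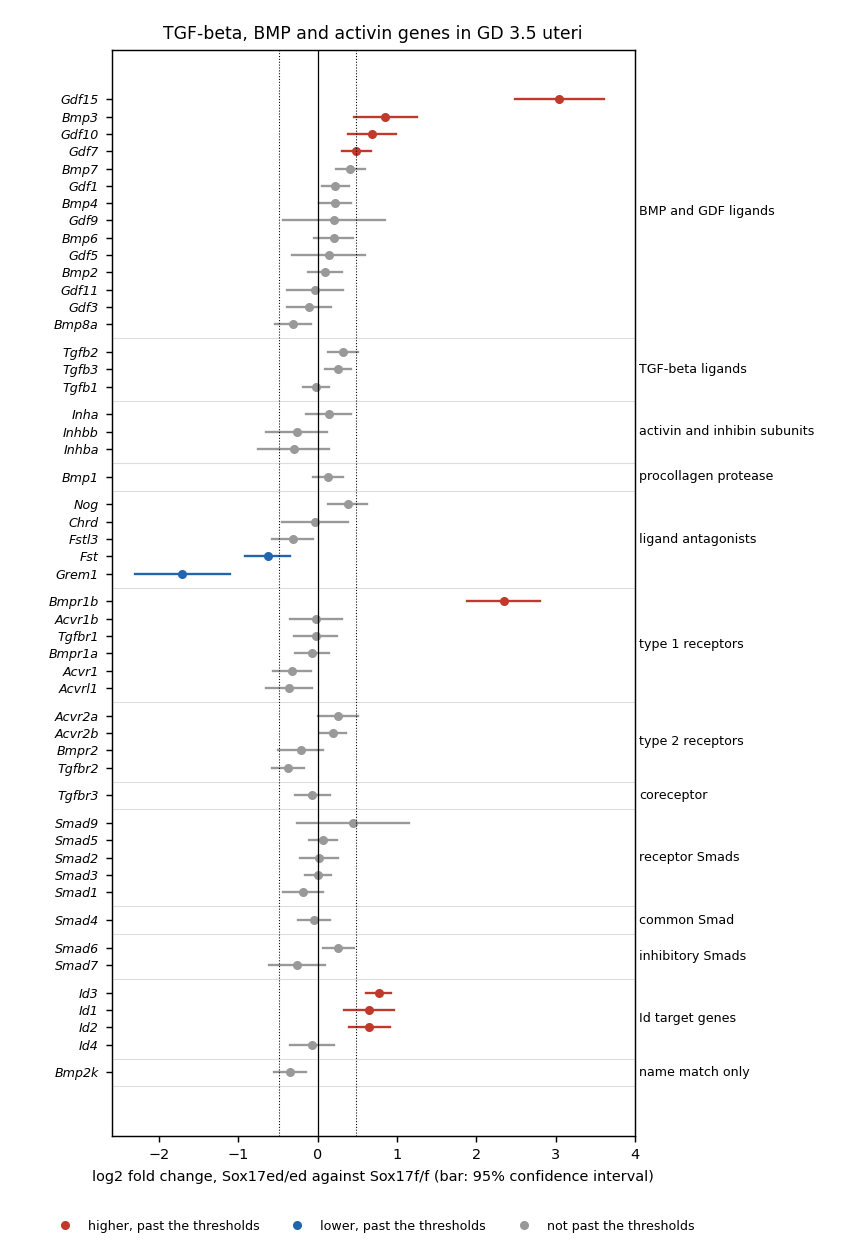
Log2 fold change of each of the 50 tested members in Sox17ed/ed against Sox17f/f uteri (x axis, points, with 95% confidence intervals from limma as bars), grouped by role on the y axis, with dotted lines at the fold threshold for a rise and a fall. Gdf15 at 3.05 and Bmpr1b at 2.34 lie far to the right, Grem1 at -1.71 lies farthest to the left, and most receptors and Smads lie between the dotted lines.

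Sequences upstream of 4 called members are shown because they include members that changed together (Id2 and Id3) and those that changed most in opposite directions among receptors and antagonists (Bmpr1b and Grem1). Each line holds the 250 bases before an annotated RefSeq start on the GRCm38.p6 assembly, 5′ to 3′ on the strand of the gene, and capitals mark the motifs searched on both strands. These were GGCGCC, a GC-rich box that Smads of the BMP branch can bind, GTCTAGAC, the palindromic Smad box, and ATTGT, the core letters recognized by SOX proteins. None of them overlapped another in these lines. Id2 lies at chr12:25096093-25096342 (minus strand), Id3 at chr4:136143572-136143821 (plus strand), Bmpr1b, shown for 1 of its 3 annotated starts, at chr3:141982265-141982514 (minus strand) and Grem1 at chr2:113758649-113758898 (minus strand).
Id2: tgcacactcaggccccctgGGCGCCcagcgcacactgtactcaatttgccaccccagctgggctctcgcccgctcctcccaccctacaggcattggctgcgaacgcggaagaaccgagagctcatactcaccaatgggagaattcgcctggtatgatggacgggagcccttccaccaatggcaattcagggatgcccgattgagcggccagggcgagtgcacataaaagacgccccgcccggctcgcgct
Id3: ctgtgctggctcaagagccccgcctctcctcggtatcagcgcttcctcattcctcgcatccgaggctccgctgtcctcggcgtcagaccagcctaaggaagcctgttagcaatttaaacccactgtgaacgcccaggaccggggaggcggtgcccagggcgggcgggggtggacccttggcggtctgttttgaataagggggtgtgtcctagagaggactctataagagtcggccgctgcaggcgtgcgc
Bmpr1b: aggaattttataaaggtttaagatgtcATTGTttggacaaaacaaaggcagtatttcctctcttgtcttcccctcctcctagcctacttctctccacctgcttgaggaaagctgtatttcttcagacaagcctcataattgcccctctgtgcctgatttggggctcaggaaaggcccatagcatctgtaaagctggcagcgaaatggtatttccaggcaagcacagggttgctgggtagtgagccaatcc
Grem1: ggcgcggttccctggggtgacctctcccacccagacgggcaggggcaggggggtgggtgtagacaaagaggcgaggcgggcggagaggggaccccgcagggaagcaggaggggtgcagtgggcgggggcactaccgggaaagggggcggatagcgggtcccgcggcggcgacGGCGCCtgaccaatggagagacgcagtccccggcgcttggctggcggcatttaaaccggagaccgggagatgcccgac

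The RefSeq table held such a window for 39 of the 58 members, 7 of the 10 called ones among them. GGCGCC stood in the window of 11 of the 39 members (28.2%), against 10.8% of all 27025 genes of the table. Among the 7 called members it was found for Id2, at position -231 from the start, and for Grem1, at -78, 1 of which was higher and the other lower in Sox17ed/ed uteri. ATTGT stood in the window of 7 of the 39 members (17.9%) and of 30.9% of all genes, and among the called members it was found for Bmpr1b, at -223 in the line above. GTCTAGAC was found for 0 members and 0.2% of all genes. These matches describe letters in a short window and show no binding.

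Ligands of the BMP and GDF group made up 4 of the called members, of 14 tested, and all 4 were higher. Gdf15, a distant member of the family that cells make under stress, changed most, and which receptor it acts through was not measured. Its log2 signal was 5.53, 5.87 and 5.05 in the Sox17f/f uteri and 8.55, 8.77 and 8.28 in the Sox17ed/ed uteri. Every Sox17ed/ed array thus lay above every Sox17f/f array by more than the spread within either genotype. It rose by 3.05 on the log2 scale (SE 0.23, limma adjusted p = 0.000414), an 8.27-fold difference with a 95% confidence interval of 5.61 to 12.2. With normexp background correction the same signals gave 2.11, or 4.32-fold, below that interval. This correction adds an offset of 50 to every spot, which by construction shrinks the fold changes of dim probes, here and below. Bmp3 and Gdf10 encode a closely related pair of ligands, of which BMP3 is known to oppose BMP signalling. Bmp3 gave 5.68, 5.74 and 6.27 against 6.76, 6.83 and 6.67, and rose by 0.85 (SE 0.16, limma adjusted p = 0.0161). Gdf10 gave 10.92, 11.37 and 11.27 against 11.81, 11.89 and 11.91, and rose by 0.68 (SE 0.13, limma adjusted p = 0.0142). For both genes the Sox17f/f arrays spread more widely than the Sox17ed/ed arrays, and the genotypes did not overlap.

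Gdf7, a ligand of the BMP branch, sat at the fold threshold. Its signal was 9.35, 9.55 and 9.47 in Sox17f/f uteri and 9.97, 9.96 and 9.91 in Sox17ed/ed uteri, a difference of 0.49 on the log2 scale (SE 0.07, limma adjusted p = 0.00696), or 1.402-fold. A dimmer Gdf7 probe gave 0.52. The fold fell under the threshold, to a log2 fold change of 0.44, without Sox17f/f replicate 1, to 0.477 without Sox17ed/ed replicate 1 and to 0.478 without Sox17ed/ed replicate 2, while the p stayed under 0.01 each time. With normexp background correction the call was lost for Gdf7 (0.45) and for Bmp3 (0.48), in each case by the fold, and that of Gdf7 also with the deposited table (0.4776). Without moderation of the variance across genes the call of Bmp3 was lost as well.

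Bmp7, another BMP ligand, had 12.15, 12.28 and 12.26 in Sox17f/f uteri and 12.72, 12.65 and 12.56 in Sox17ed/ed uteri. The genotypes did not overlap, and the difference of 0.41 (SE 0.07) had a limma adjusted p of 0.0126 but stayed under the fold threshold. Bmp2, the ligand known for decidualization, had 9.39, 9.18 and 9.26 against 9.46, 9.25 and 9.39. These ranges overlapped, and the difference of 0.09 had a 95% confidence interval of -0.13 to 0.31, so that a change of 1.4-fold or more lay outside the interval. Bmp4, which is close to Bmp2 in sequence and receptor use, had 10.31, 10.10 and 10.26 against 10.47, 10.36 and 10.49, a difference of 0.22 (limma adjusted p = 0.122). The other 7 tested ligands of the group lay between -0.31 and 0.22. Among them Bmp8a had the lowest value and Gdf1 the highest, Gdf1 being uncertain because it can be transcribed together with its neighbour Cers1.

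**Figure D2:**
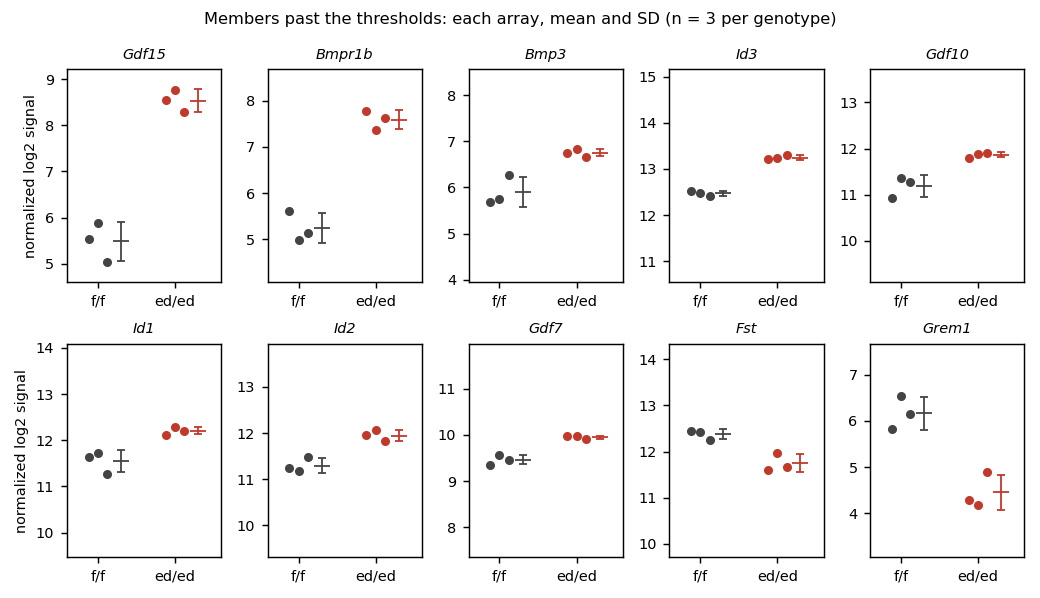
Normalized log2 signal (y axis) of the 10 called members on each of the 3 Sox17f/f arrays (f/f, grey) and 3 Sox17ed/ed arrays (ed/ed, red), with the mean and SD beside the points; the axis of each panel covers its own range and does not start at 0. In none of the panels do the genotypes overlap, and the gap is widest for Gdf15, from 5.87 to 8.28.

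Of the 3 TGF-beta ligands 0 were called. Tgfb1 had 8.67, 8.68 and 8.63 in Sox17f/f uteri and 8.64, 8.72 and 8.55 in Sox17ed/ed uteri, which overlapped, and its difference of -0.03 had a 95% confidence interval of -0.19 to 0.14. Tgfb2 had 10.88, 10.88 and 10.95 against 11.09, 11.29 and 11.28, and Tgfb3 had 11.06, 10.92 and 11.004 against 11.21, 11.31 and 11.22. Both were higher on every Sox17ed/ed array, with differences of 0.32 for Tgfb2 (limma adjusted p = 0.0388) and 0.25 for Tgfb3 (limma adjusted p = 0.0518), each under the fold threshold. A dimmer Tgfb2 probe gave 0.31.

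Activins are dimers of inhibin beta subunits, and inhibins pair such a subunit with the alpha subunit Inha. None of the 3 subunit genes was called. Inhba had 7.29, 7.41 and 7.09 in Sox17f/f uteri and 7.27, 6.59 and 7.03 in Sox17ed/ed uteri. Inhbb had 9.03, 9.26 and 8.72 against 8.68, 8.61 and 8.93. In both the genotypes overlapped, and the differences were -0.30 (95% confidence interval -0.75 to 0.15) and -0.27 (-0.65 to 0.11), intervals that still hold a 1.4-fold decrease. Inha differed by 0.14.

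Among 5 secreted antagonists, 2 were lower and 0 higher. Grem1 encodes gremlin, which binds BMP2, BMP4 and BMP7. Its signal was 5.82, 6.53 and 6.14 in Sox17f/f uteri and 4.29, 4.19 and 4.89 in Sox17ed/ed uteri, and the genotypes did not overlap. It fell by 1.71 on the log2 scale (SE 0.25, limma adjusted p = 0.00584), a 3.26-fold difference. The probe was well above background on all 3 Sox17f/f arrays but on 1 Sox17ed/ed array, so the lower level is close to background. With normexp background correction the value was -0.70, or 1.62-fold, and a filter that needed all 6 arrays left Grem1 untested. Fst encodes follistatin, which binds activins and some BMPs. Its signal was 12.45, 12.42 and 12.26 against 11.59, 11.97 and 11.67, again with no overlap, and it fell by 0.63 (SE 0.12, limma adjusted p = 0.0145), or 1.55-fold.

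The other 3 antagonists were not called. Nog encodes noggin, which blocks BMP2, BMP4 and BMP7, and its signal was 7.32, 7.27 and 6.99 in Sox17f/f uteri and 7.62, 7.56 and 7.53 in Sox17ed/ed uteri. Every Sox17ed/ed array was thus higher, opposite in direction to Grem1 and Fst, and the difference of 0.38 (SE 0.10, limma adjusted p = 0.0498) stayed under the fold threshold. Chrd, encoding chordin, differed by -0.03. Fstl3, a relative of follistatin, differed by -0.32 (limma adjusted p = 0.0914). Bmp1, a protease named with the BMPs that trims procollagen and can cleave chordin, differed by 0.13.

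Of 6 type 1 receptors 1 was called. Bmpr1b encodes a type 1 receptor for BMP and GDF ligands, and was 5.61, 4.98 and 5.14 in Sox17f/f uteri and 7.77, 7.36 and 7.63 in Sox17ed/ed uteri. The genotypes lay far apart, and it rose by 2.34 (SE 0.19, limma adjusted p = 0.000536), a 5.07-fold difference with a 95% confidence interval of 3.69 to 6.97. With normexp background correction it was 1.21, or 2.31-fold, below that interval. A dimmer Bmpr1b probe rose by 2.27, from 3.60, 3.10 and 3.63 to 5.62, 5.81 and 5.70, and was well above background on 1 Sox17f/f array and all 3 Sox17ed/ed arrays. The upstream window of Bmpr1b printed above is that of the transcript whose start lies farthest upstream.

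The remaining 5 type 1 receptors were not called. Bmpr1a, a BMP receptor related to Bmpr1b, had 10.39, 10.28 and 10.33 in Sox17f/f uteri and 10.17, 10.20 and 10.42 in Sox17ed/ed uteri, which overlapped, with a difference of -0.07 (95% confidence interval -0.28 to 0.15). Acvr1, a BMP and activin type 1 receptor, had 11.28, 11.46 and 11.53 against 10.96, 11.17 and 11.17, a difference of -0.32 (limma adjusted p = 0.0692) in which every Sox17ed/ed array lay below every Sox17f/f array. Tgfbr1, the type 1 receptor for TGF-beta, had 8.91, 9.26 and 8.92 against 8.94, 9.01 and 9.07, a difference of -0.03 (95% confidence interval -0.30 to 0.24). The activin receptor Acvr1b differed by -0.02 and Acvrl1, a receptor of endothelial cells, by -0.36 (limma adjusted p = 0.0894). The level of the endothelium markers given above moved in the same direction as Acvrl1, and its part was not tested.

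Of 4 type 2 receptors 0 were called with their brightest probes, and for a pair of them the probes disagreed. Bmpr2, the type 2 receptor for BMPs, had 9.62, 9.26 and 9.42 in Sox17f/f uteri and 9.19, 9.35 and 9.104 in Sox17ed/ed uteri, which overlapped (difference -0.22, limma adjusted p = 0.251). Acvr2a, a type 2 receptor for activins and BMPs, had 7.12, 6.91 and 6.93 against 7.30, 7.34 and 7.07 with its brighter probe, a difference of 0.25 (limma adjusted p = 0.151). Its dimmer probe pointed the other way, with 5.15, 5.02 and 5.18 against 4.47, 4.16 and 4.58, a difference of -0.71 (limma adjusted p = 0.0223 in a fit over all probes), and was well above background on 2 of the 3 Sox17ed/ed arrays. The direction for Acvr2a therefore depends on the probe.

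For Tgfbr2, the type 2 receptor for TGF-beta, both probes were lower in Sox17ed/ed uteri but by different amounts. The brighter probe had 13.99, 14.04 and 13.99 in Sox17f/f uteri and 13.48, 13.72 and 13.70 in Sox17ed/ed uteri, a difference of -0.38 (limma adjusted p = 0.0273) under the fold threshold. The dimmer probe had 9.74, 9.67 and 9.67 against 8.96, 9.02 and 9.02, a difference of -0.69 (limma adjusted p = 0.00271 in a fit over all probes). Tgfbr2 passed the thresholds with the mean of its probes (-0.53). The coreceptor Tgfbr3, betaglycan, differed by -0.07, and the type 2 receptor Acvr2b by 0.19.

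**Figure D3:**
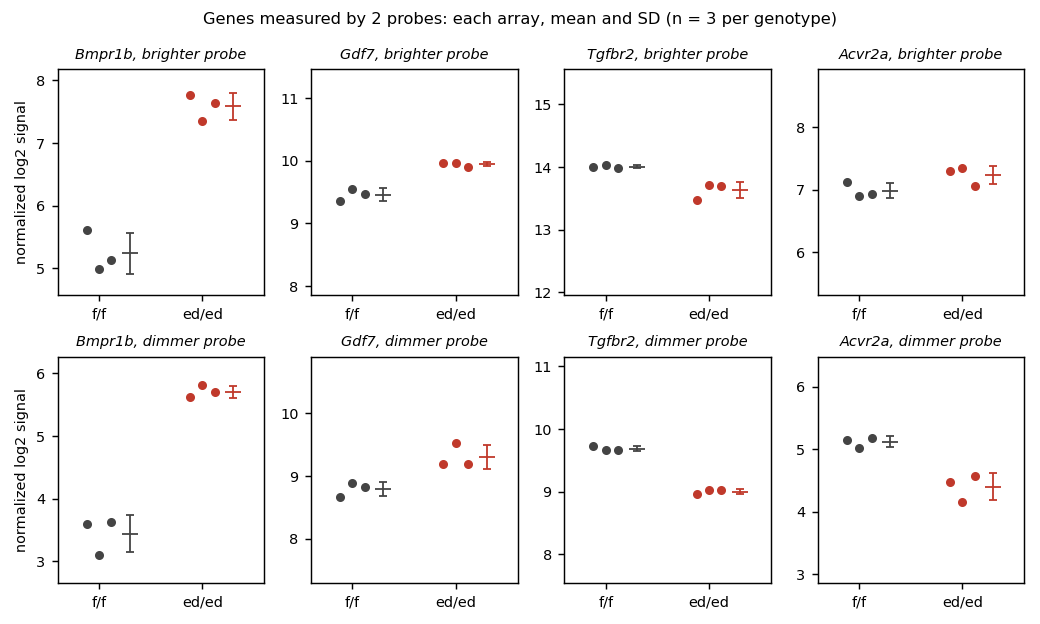
Normalized log2 signal (y axis) of 4 members on each array with the brighter probe (upper row) and the dimmer probe (lower row) of the same gene, Sox17f/f in grey and Sox17ed/ed in red, with the mean and SD beside the points; the axes do not start at 0. The probes of Bmpr1b (2.34 and 2.27), Gdf7 and Tgfbr2 point the same way, whereas those of Acvr2a point in opposite directions (0.25 and -0.71).

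None of the 8 Smad genes passed the thresholds. Among the receptor Smads of the BMP branch, Smad1 had 8.62, 8.85 and 8.81 in Sox17f/f uteri and 8.47, 8.51 and 8.75 in Sox17ed/ed uteri, a difference of -0.19 (95% confidence interval -0.44 to 0.07). Smad5 had 12.88, 12.89 and 12.82 against 12.85, 12.91 and 13.03, a difference of 0.07 (95% confidence interval -0.11 to 0.24). For both the genotypes overlapped, and the intervals held no change of 1.4-fold. Smad9 was dim and spread widely, with a difference of 0.44 and an interval of -0.26 to 1.15. Smad2 and Smad3, which serve TGF-beta and activin, differed by 0.01 and 0.0013.

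Smad4, the partner shared by both branches, had 12.01, 11.96 and 12.02 in Sox17f/f uteri and 11.82, 12.09 and 11.93 in Sox17ed/ed uteri. The genotypes overlapped, and the difference of -0.05 had an interval of -0.25 to 0.16. Of the inhibitory Smads, which BMP and TGF-beta signals themselves induce, Smad6 had 8.08, 8.27 and 8.17 against 8.41, 8.53 and 8.37. Every Sox17ed/ed array lay above every Sox17f/f array, but the difference of 0.26 had a limma adjusted p of 0.0733. Smad7 had 6.44, 5.87 and 6.14 against 5.90, 5.87 and 5.91, which overlapped, a difference of -0.26 (limma adjusted p = 0.269). These are levels of mRNA, and phosphorylation of Smad proteins is not measured by an array.

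Id genes encode helix-loop-helix proteins that hold other transcription factors off DNA, and they are textbook targets of BMP Smads. Of the 4 measured, 3 rose. Id3 had 12.52, 12.48 and 12.41 in Sox17f/f uteri and 13.21, 13.23 and 13.30 in Sox17ed/ed uteri, and rose by 0.77 (SE 0.07, limma adjusted p = 0.000648). Id1 had 11.65, 11.73 and 11.28 against 12.12, 12.28 and 12.21, and rose by 0.65 (SE 0.13, limma adjusted p = 0.0192). Id2 had 11.23, 11.18 and 11.47 against 11.96, 12.06 and 11.82, and rose by 0.65 (SE 0.11, limma adjusted p = 0.00905). The genotypes did not overlap for any of these 3, and the folds were 1.71, 1.57 and 1.57. Id4 had 9.11, 9.09 and 9.21 against 8.88, 9.01 and 9.29, which overlapped, and its difference of -0.07 had an interval of -0.35 to 0.21. The call of Id1 was lost without moderation of the variance across genes. The mean level of the general uterine epithelium markers was also higher in Sox17ed/ed uteri, by 0.58, and that of the cell cycle markers by 0.40, and their part in the Id values was not tested.

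Bmp2k, a kinase that matched the name rule but is no ligand, differed by -0.35 (limma adjusted p = 0.0339), under the fold threshold. Gdf9, known as an oocyte ligand and listed here as an ovary marker too, was above background on all 6 arrays but differed by 0.21 with an interval of -0.44 to 0.85. It overlapped between the genotypes, with 5.54, 6.30 and 5.97 against 6.61, 5.80 and 6.04.

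Genes of the same system outside the name rule were taken from 5 lists, of which 89 of 101 genes were tested. Of these 21 were called (23.6%, against 12.5% of all genes tested), 7 higher and 14 lower. The lists were chosen with earlier results of these data known, so their shares describe them and test nothing. Each list is given below by its counts, and the arrays of the genotypes did not overlap for any of the called genes named.

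Among 15 tested genes that process or store the ligands, 2 were higher and 3 lower. Ltbp2, a matrix protein of the latent TGF-beta binding family, had 7.65, 7.07 and 7.50 in Sox17f/f uteri and 11.34, 10.11 and 10.05 in Sox17ed/ed uteri, and rose by 3.09 (SE 0.37, limma adjusted p = 0.00275). Sox17ed/ed replicate 1 was the highest of its group. Itgb6, an integrin subunit of epithelia that helps release TGF-beta from its latent form, rose by 0.98 (limma adjusted p = 0.00417). Thrombospondin, encoded by Thbs1, can also activate latent TGF-beta, and Lrrc32 holds it at the cell surface. Thbs1 fell by 1.05 and Lrrc32 by 0.67. For Tll1, a protease that cleaves chordin, the probes disagreed in size, with -1.84 for the brighter one, which was well above background on 1 Sox17ed/ed array, and -0.33 for the other. The Tll1 value was -0.71 with normexp background correction, and -1.09 with the mean of the probes. Without Sox17f/f replicate 1, 2 or 3 the second probe of Tll1 became the brighter one, and the value was -0.15, -0.35 or -0.50 and no longer past the thresholds.

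Among 14 tested antagonists outside the members, 3 were lower and 1 higher. Sostdc1, an antagonist of BMP and Wnt ligands, had 5.64, 5.28 and 5.09 in Sox17f/f uteri and was not well above background on any Sox17ed/ed array. Its log2 fold change was -1.49 (limma adjusted p = 0.00647). The bound from these quantile normalized signals was 2.13-fold, and it does not hold under every processing. A second Sostdc1 probe overlapped between the genotypes, with 5.83, 4.91 and 3.77 against 3.67, 4.65 and 1.99. Without Sox17f/f replicate 1, 2 or 3 this second probe took the place of the first and did not pass, at -0.90, -1.37 or -1.94. With normexp background correction the Sostdc1 value was -0.39, or 1.31-fold, below that bound and under the fold threshold. Bmper, a BMP-binding matrix protein, had 9.17, 9.13 and 8.80 against 7.61, 8.40 and 8.20, a log2 fold change of -0.96 (limma adjusted p = 0.0294). Its call was lost without Sox17f/f replicate 1 (-0.89), Sox17f/f replicate 2 (-0.91) or Sox17ed/ed replicate 3 (-1.02). Chrdl1, a relative of chordin, fell by 0.76 with its brightest probe (limma adjusted p = 0.00462) and had lower values with its 2 other probes, -0.62 and -0.60. Htra1, a secreted protease that inhibits the family, had a log2 fold change of 0.53 (limma adjusted p = 0.0296) and lost its call without any single array other than Sox17f/f replicate 3, with values between 0.45 and 0.56, and also with a shift to the 75th percentile (0.46). Without moderation of the variance Bmper and Htra1 lost their calls.

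Inside the cell, 1 of 24 tested regulators was called: Runx1, a transcription factor that can partner with Smads, was lower by both its probes, -0.64 (limma adjusted p = 0.00706) and -0.66. Its value was -0.30 with normexp background correction, under the fold threshold, so this call was lost. The other ligands and coreceptors, 9 tested genes, had 0 calls, with log2 fold changes from -0.42 to 0.23.

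Genes known to respond to these ligands were the largest list and had the most calls, 11 of 27 tested, 4 higher and 7 lower. That is 40.7% of them, against 12.5% of all genes tested, and the difference in share was not tested. Some textbook targets of TGF-beta were among the lower ones, and others were not. Ccn2, the connective tissue growth factor, had 12.80, 12.76 and 12.74 in Sox17f/f uteri and 9.47, 9.81 and 9.90 in Sox17ed/ed uteri, and fell by 3.04 on the log2 scale (SE 0.12, limma adjusted p = 3.48e-05), or 8.23-fold. Snai1, a repressor of epithelial genes, fell by 1.06 (limma adjusted p = 0.0013). The matrix protein gene Tnc fell by 0.75 with its brighter probe and by 1.48 with the other, but with normexp background correction its value was -0.48 and just under the fold threshold. Junb had a log2 fold change of -1.03 and lost its call without Sox17ed/ed replicate 2 (-0.93) or replicate 3 (-0.97), by the p. Cdkn2b, a cell cycle inhibitor that TGF-beta induces, went the other way and rose by 1.35 (limma adjusted p = 0.0172), from 5.14, 6.20 and 5.59 to 7.16, 6.89 and 6.92. Its value was 0.74 with normexp background correction. The calls of Cdkn2b and Junb were lost without moderation of the variance across genes. Of the uncalled genes of this list, Fn1 was higher by 0.32 (limma adjusted p = 0.029), under the fold threshold. Tgfbi, Col1a1, Col3a1, Snai2 and Postn lay between -0.03 and 0.05, while Pmepa1, Tagln and Acta2 were at -0.45, -0.33 and -0.29.

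Genes that respond to BMPs also went both ways. The study lists some of them under ovarian hormones, Wnt4 as responsive to estrogen, and Msx1 and Msx2 to progesterone. The part of these hormones in the values below was not tested. The homeobox genes Msx1 and Msx2 differed in sign. Msx2 rose from 8.27, 7.86 and 7.79 to 10.29, 10.02 and 10.25, by 2.21 (SE 0.15, limma adjusted p = 0.000267), while Msx1 fell from 12.21, 12.08 and 12.52 to 11.27, 11.06 and 11.63, by 0.95 (SE 0.18, limma adjusted p = 0.015). Wnt4, a ligand that acts downstream of BMP2 in the stroma, rose by 1.61 (limma adjusted p = 0.0006), and Atoh8, a helix-loop-helix factor, by 0.72 (limma adjusted p = 0.0163). Hey1, a Notch and BMP target, had a log2 fold change of -0.54 (limma adjusted p = 0.0412), and lost its call without any single array other than Sox17ed/ed replicate 3, with values from -0.45 to -0.58. The other 16 tested target genes, collagen and smooth muscle genes among them, did not pass. Without moderation of the variance the calls of Msx1, Atoh8 and Hey1 were lost, and that of Hey1 also with normexp background correction (-0.44) and with no filter on low signal.

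**Figure D4:**
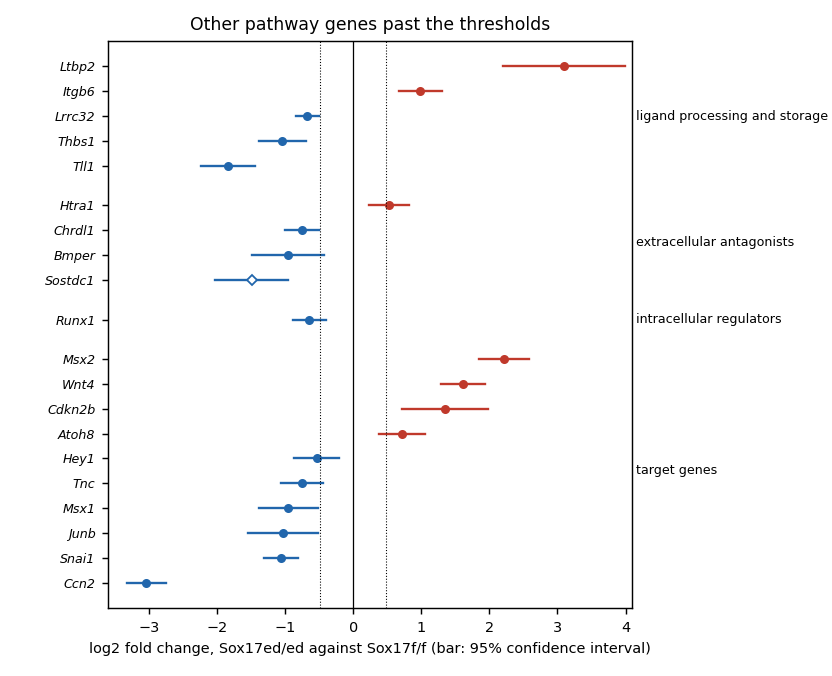
Log2 fold change in Sox17ed/ed against Sox17f/f uteri (x axis, points, with 95% confidence intervals from limma as bars) of 20 of the 21 called genes from the 5 lists outside the name rule, with dotted lines at the fold threshold for a rise and a fall. The open diamond marks Sostdc1, which was not well above background on any Sox17ed/ed array; Ltbp2 at 3.09 and Ccn2 at -3.04 lie at the ends.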

How the data were processed

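Whole uteri of 3 Sox17f/f and 3 Sox17ed/ed mice were measured on 6 arrays (Agilent G3 Mouse GE) in 1 colour. The series describes 3 biological samples per genotype. The authors deposited the scanner intensity of each array, as the processed signal after background subtraction and removal of trends within the array, with no normalization between arrays, and a table of processed values within 0.191% of it on the same linear intensity scale. The file headers name Feature Extraction 11.0.1.1, the submitters' processing notes 9.1. From these, log2 values of the deposited signal were quantile normalized, as the study's methods name. Control spots and 169 to 302 spots per array that the software marked as non-uniform or outliers were left out, replicate spots were averaged per probe, and a probe was kept if at least 3 of 6 arrays measured it well above background. Accessions named 26582 of 55681 probes through a RefSeq gene table (GRCm38.p6), giving 20145 genes. The probe of highest mean signal stood for a gene.

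Genotypes were compared with lmFit and eBayes of limma 3.58.1 under R 4.3.3 over 14847 genes, with Benjamini-Hochberg adjustment over all of them. Calls needed an unadjusted p under 0.01 and a fold change of at least 1.4. The number of arrays limits the precision. On simulated data for this comparison, with 14762 genes and 50 changed genes of each size, 19 changes of 0.5 on the log2 scale were called, 44 of 1, 50 of 2 and 50 of 3, with 56 unchanged genes called. A change of 0.5 lies close to the fold threshold of 0.4854, so the count of 19 depends on that threshold and not only on the number of arrays. Where no array of a genotype measured a probe well above background, a bound is given, the mean of the brighter genotype against the lowest signal well above background (or the probe's own signal, where higher) on each array of the dimmer one. Motifs were counted with Python 3.11.15 and pandas 2.3.3, and plots drawn with matplotlib 3.10.9. Members and gene lists were chosen with earlier results of these data known. Every-array values are printed for called members and, whatever their values, for 24 ligands, receptors, antagonists, Smads and Id genes, for called genes of the other lists where the text turns on them, and for probes that disagree. Of the 21 called genes of the other lists, 1 is counted but not reported here by name. Acvrl1, Bmp2k, Bmp8a, Fstl3, Gdf1 and Gdf9 were named after their values were seen.

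Alternatives tried were normexp background correction (offset 50) on the median spot and background signals, since the mean signal was not used here, a 75th percentile shift in place of quantile normalization, the deposited table, no filter on low signal or a filter on all 6 arrays, averaging the probes of a gene or taking that of smallest p, eBayes with an intensity trend, a linear model without moderation, the replicate number as a block, leaving out each array, a fold threshold of 2, and an adjusted p under 0.05 alone.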

Additional observations from a re-analysis of the deposited data

How the results depend on the processing

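The number of members called higher stayed between 6 and 11, against 8, under every alternative other than a fold threshold of 2, which left 2 (Gdf15 and Bmpr1b). Those called lower, 2, became 1 with a fold threshold of 2, 1 with a filter on all 6 arrays (Grem1 was no longer tested), 4 with the probe of smallest p and 4 at an adjusted p under 0.05 alone. Leaving out each array gave 7 to 8 higher and 2 lower members. For the other pathway genes, 7 higher and 14 lower, the linear model without moderation left 4 higher, and a fold threshold of 2 left 4 higher and 7 lower, while leaving out each array gave 6 to 8 and 10 to 14. Over all genes the fold threshold of 2 left 398 higher and 419 lower genes, and an adjusted p under 0.05 gave 1496 lower. No scaling moved the median of all genes by over 0.021. Of the called members, 10 passed with the replicate number as a block, the same 10 as without it. The numbers do not pair the mice (same-numbered arrays deviated together with correlations of 0.0629, -0.1142 and -0.0001), and the block gave 8 higher and 13 lower other pathway genes, and ended the call of Hey1 alone among the genes named.

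The sign of 15 uncalled members changed under some alternative. With normexp it did for Acvr1b (0.0067), Bmpr1a (0.0286), Chrd (0.0138) and Smad3 (-0.0171), with the 75th percentile for Gdf11 (0.0091), Smad3 (-0.0285) and Smad5 (-0.0033), and with the deposited table for Smad2 (-0.0035) and Smad3 (-0.0093). The mean of the probes gave -0.23 for Acvr2a and 0.0128 for Smad4, and the probe of smallest p -0.71 and 0.0735. Leaving out each array gave -0.14 to 0.0489 for Acvr1b, -0.16 to 0.11 for Chrd, -0.14 to 0.12 for Gdf11, -0.19 to 0.0033 for Gdf3, -0.02 to 0.39 for Gdf9, -0.19 to 0.0153 for Id4, -0.0832 to 0.081 for Smad2, -0.0214 to 0.0422 for Smad3, -0.12 to 0.0143 for Smad4, -0.0654 to 0.0162 for Tgfb1, -0.0847 to 0.0885 for Tgfbr1 and -0.14 to 0.0094 for Tgfbr3. The cause was not tested.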
